A study of Mus musculus with 10 samples.

Results

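The 10 genes described here encode enzymes of glycolysis: Hk2, Gpi1, Pfkp, Aldoa, Tpi1, Gapdh, Pgk1, Pgam1, Eno1 and Ldha. They were taken by symbol from a table of 55401 genes counted in tumors of obese mice given liraglutide or vehicle. They were chosen by their place in glycolysis and with the fold changes of liraglutide against vehicle in these same tumors in view, since Pgk1 had been among the lower genes. Their differences between the treatments are therefore given as a description. All 10 passed the filter on low counts, which left 17464 genes to be tested.

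RNA was sequenced from 10 subcutaneous tumors, 5 per treatment, each from a different mouse. The tumors grew from KPN1.1 cells, a mouse lung adenocarcinoma line, so all tumors derive from a single cell line. Both groups were male C57BL/6J mice with diet-induced obesity, 7 to 17 weeks old, and received 75000 cells in the flank. Once tumors were palpable, liraglutide mice were injected intraperitoneally each day with 0.2 μg/g body weight of this agonist of the GLP-1 receptor, and vehicle mice received PBS, until harvest between days 19 and 22.

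Ribosomal RNA was depleted from a frozen fragment of each tumor, so the values mix tumor cells with host cells. Total counts were between 9927942 and 14480593 per tumor. The epithelial markers Epcam, Krt8, Krt18, Krt19, Cdh1, Cldn7 and Nkx2-1 were counted in every tumor, while Cldn4 and Sftpc were at 0 in some of them. In bulk RNA of this kind, fewer cells of a type and less RNA per cell cannot be told apart.

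Glycolysis splits glucose into pyruvate and yields ATP without oxygen. Its early steps spend ATP to phosphorylate the sugar, its later steps recover ATP and NADH, and lactate dehydrogenase turns pyruvate into lactate and restores NAD+. Tumors often run glycolysis at a high rate, and several of its genes are textbook targets of the hypoxia-inducible factors, which bind a response element with the core letters ACGTG or GCGTG.

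Upstream sequences of 5 of the genes are printed because they differ in these core letters while the genes themselves were compared across the same tumors. They come from the GRCm39 genome, lie upstream of the canonical start and hold no annotated exon of the same gene. The Gapdh and Ldha stretches lie within the annotated span of the gene, which begins farther upstream. Each sequence is written 5′ to 3′ along its gene's own strand, with matches on either strand in capitals (on the opposite strand the letters read CACGT or CACGC). The first belongs to Hk2 (chr6:82751470-82751702, minus strand), the next to Gpi1 (chr7:33929781-33930030, minus strand), then to Gapdh (chr6:125142737-125142986, minus strand), Pgk1 (chrX:105230456-105230705, plus strand) and Ldha (chr7:46495013-46495131, plus strand).
Hk2: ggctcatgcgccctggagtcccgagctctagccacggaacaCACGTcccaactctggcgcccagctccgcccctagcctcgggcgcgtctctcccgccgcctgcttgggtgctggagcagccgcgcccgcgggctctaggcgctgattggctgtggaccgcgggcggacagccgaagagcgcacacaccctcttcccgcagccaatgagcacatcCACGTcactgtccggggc
Gpi1: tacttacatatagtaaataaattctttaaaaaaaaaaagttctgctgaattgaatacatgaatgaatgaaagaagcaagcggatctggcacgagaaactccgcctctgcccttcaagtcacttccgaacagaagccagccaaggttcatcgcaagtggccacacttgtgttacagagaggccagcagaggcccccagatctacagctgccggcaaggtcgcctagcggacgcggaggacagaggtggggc
Gapdh: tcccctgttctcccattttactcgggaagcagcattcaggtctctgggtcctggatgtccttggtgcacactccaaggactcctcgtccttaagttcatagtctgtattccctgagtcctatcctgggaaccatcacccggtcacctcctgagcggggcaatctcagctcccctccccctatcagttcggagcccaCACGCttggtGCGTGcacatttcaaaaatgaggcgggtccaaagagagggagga
Pgk1: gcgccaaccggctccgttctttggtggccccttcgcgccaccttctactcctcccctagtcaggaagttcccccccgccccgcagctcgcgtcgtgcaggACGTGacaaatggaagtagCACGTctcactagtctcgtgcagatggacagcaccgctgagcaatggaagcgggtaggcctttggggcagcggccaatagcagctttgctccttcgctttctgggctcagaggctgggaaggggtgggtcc
Ldha: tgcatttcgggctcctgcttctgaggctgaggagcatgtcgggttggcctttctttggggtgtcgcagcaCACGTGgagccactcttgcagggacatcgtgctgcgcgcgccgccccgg

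Within 250 bases upstream of the canonical start, 8 of the 10 genes held ACGTG or GCGTG on either strand, against 51.3% of the promoters of 13139 tested protein-coding genes. The ACGTG form was found in 6 of the 10 genes, against 20.5% of those promoters. Pgk1 held 2 copies of ACGTG, and Hk2 held 2, of which the nearer lay 31 to 35 bases upstream of the start. Gapdh held 2 copies of the GCGTG form. The palindrome CACGTG, seen in the Ldha sequence above, counts as a match on each strand, and the Ldha window held 6 matches in all, some of them in an exon of another Ldha transcript that is not printed. No match was found in the windows of Gpi1 and Tpi1. A match is a description of letters, not evidence of a bound site.

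The RNA levels of all 10 genes had a lower mean in the liraglutide tumors, and for Pgk1 alone the groups did not overlap. The fitted log2 fold changes lay between -0.67 for Gapdh and -0.20 for Gpi1, with a median of -0.46. Among all tested genes 52.6% had a fold change below 0, and the median was -0.02. Levels are given as CPM, counts scaled to a common library size after TMM adjustment, and each fold change has its standard error (SE) from the edgeR fit.

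**Figure D1:**
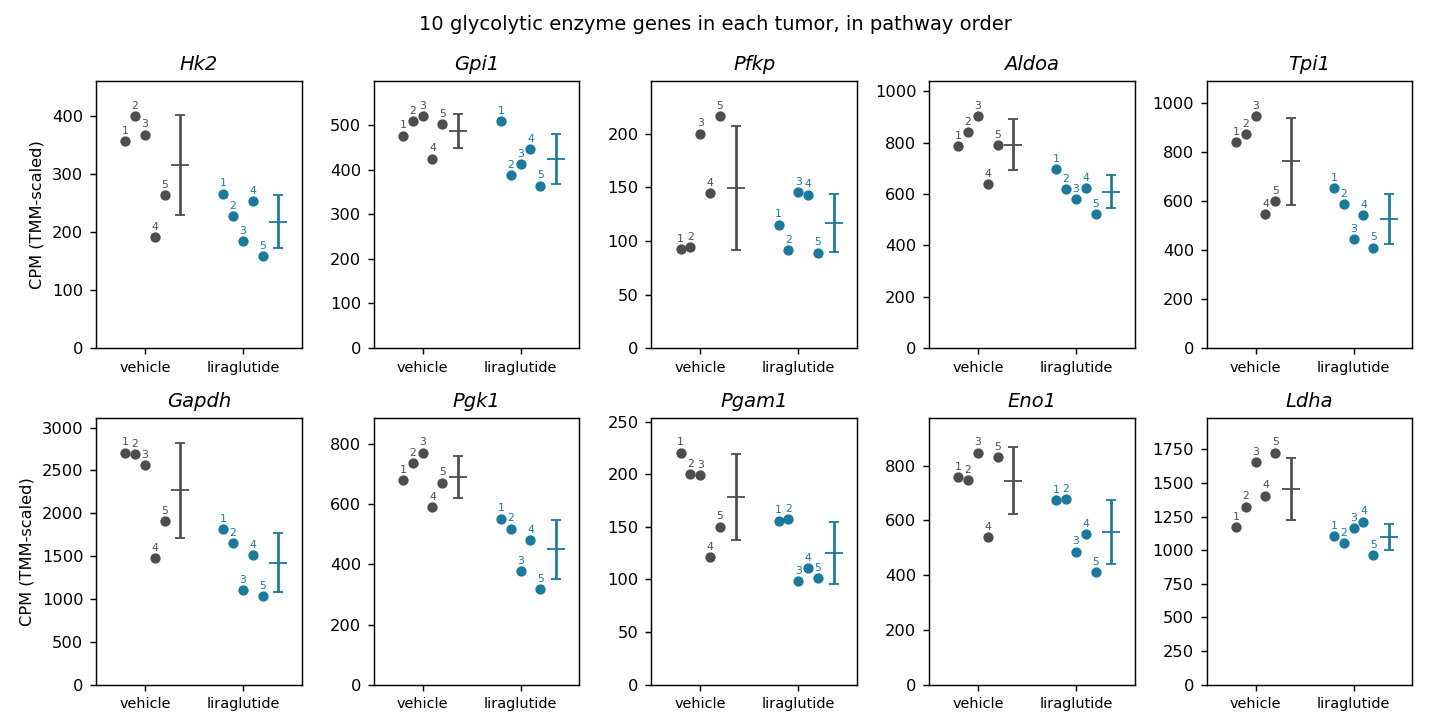
Each panel shows 1 gene in pathway order, with CPM (TMM-scaled) on a linear axis from 0, a point per tumor labelled with its tumor number, and the mean ± SD (n = 5) to the right of each group. Of the 10 panels, the panel of Pgk1 is the one in which every liraglutide point lies below every vehicle point.

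The hexokinase gene Hk2 (ENSMUSG00000000628, chromosome 6, 82699740 to 82751469, GRCm39), whose enzyme traps glucose in the cell as glucose 6-phosphate, was at 357, 400, 368, 192 and 264 CPM in vehicle tumors 1 to 5. In liraglutide tumors 1 to 5 it was at 267, 228, 184, 253 and 159 CPM. Vehicle tumors 1 to 3 stood above all the others, and vehicle tumor 4 lay within the liraglutide range. The group means were 316 ± 86.1 and 218 ± 45.6 CPM (SD, n = 5 each), and the log2 fold change was -0.54 (SE 0.21).

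Gpi1 (chromosome 7, 33900755 to 33929780), which encodes the isomerase that makes fructose 6-phosphate, varied least between tumors and differed least between groups. Its vehicle tumors were at 476, 509, 521, 425 and 503 CPM, and its liraglutide tumors at 509, 388, 412, 446 and 364 CPM. Liraglutide tumor 1 was as high as the upper vehicle tumors. The log2 fold change was -0.20 (SE 0.11).

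Pfkp (chromosome 13, 6629798 to 6698970) encodes the platelet form of phosphofructokinase, the committed step of glycolysis. It was at 92.6, 94.5, 200.1, 144 and 217 CPM in vehicle tumors and at 115, 91.5, 145, 143 and 89.0 CPM in liraglutide tumors. The vehicle tumors split widely, with tumors 3 and 5 high and tumors 1 and 2 as low as the lowest liraglutide tumors. The log2 fold change was -0.36 (SE 0.26), and it was -0.18 without vehicle tumor 5 and -0.22 without vehicle tumor 3.

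Aldoa (chromosome 7, 126393822 to 126399923) encodes aldolase A, which cleaves fructose 1,6-bisphosphate. Its vehicle tumors were at 788, 841, 905, 639 and 792 CPM and its liraglutide tumors at 698, 618, 582, 624 and 522 CPM. Liraglutide tumors 2 to 5 lay below every vehicle tumor, and liraglutide tumor 1 lay above vehicle tumor 4. The log2 fold change was -0.38 (SE 0.11).

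Tpi1 (chromosome 6, 124787549 to 124791273) encodes triosephosphate isomerase, which interconverts the products of aldolase. It was at 840, 872, 946, 547 and 598 CPM in vehicle tumors and at 652, 588, 443, 542 and 409 CPM in liraglutide tumors. Vehicle tumors 1 to 3 stood apart from the rest, as they did for Hk2. The log2 fold change was -0.53 (SE 0.18).

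Gapdh (chromosome 6, 125135289 to 125143518) encodes glyceraldehyde 3-phosphate dehydrogenase, which produces NADH, and is often used as a reference gene. Vehicle tumors were at 2709, 2688, 2558, 1476 and 1910 CPM, and liraglutide tumors at 1814, 1653, 1101, 1513 and 1039 CPM. Vehicle tumors 1 to 3 were again the highest, and vehicle tumor 4 was below 3 of the liraglutide tumors. The means were 2268 ± 550.1 and 1424 ± 341 CPM (SD, n = 5 each), with a log2 fold change of -0.67 (SE 0.21).

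Pgk1 (ENSMUSG00000062070, chromosome X, 105230706 to 105247305) encodes phosphoglycerate kinase, the first enzyme of the pathway to make ATP. It was at 681, 737, 772, 589 and 672 CPM in vehicle tumors and at 552, 519, 377, 481 and 319 CPM in liraglutide tumors. The lowest vehicle tumor was above the highest liraglutide tumor, though the gap between these tumors was smaller than the spread within either group. The means were 690.1 ± 69.6 and 449.6 ± 98.4 CPM (SD, n = 5 each), and the log2 fold change was -0.62 (SE 0.15).

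Pgam1 (chromosome 19, 41900341 to 41907104) encodes phosphoglycerate mutase. Vehicle tumors were at 221, 200.2, 199, 121 and 150.3 CPM and liraglutide tumors at 156, 158, 98.6, 111 and 101 CPM. Vehicle tumors 1 to 3 were above all others, while vehicle tumors 4 and 5 overlapped the liraglutide tumors. The log2 fold change was -0.51 (SE 0.20).

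Eno1 (chromosome 4, 150321073 to 150337027) encodes enolase 1, which forms phosphoenolpyruvate. It was at 758, 747, 848, 540.4 and 831 CPM in vehicle tumors and at 673, 677, 486, 549 and 411 CPM in liraglutide tumors. All vehicle tumors but tumor 4 lay above the liraglutide tumors. The log2 fold change was -0.41 (SE 0.17).

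Ldha (ENSMUSG00000063229, chromosome 7, 46490899 to 46505061) encodes the A subunit of lactate dehydrogenase. It was at 1174, 1324, 1656, 1406 and 1725 CPM in vehicle tumors and at 1103, 1050.2, 1163, 1213 and 966 CPM in liraglutide tumors. Here vehicle tumor 1, not tumor 4, was the lowest vehicle tumor, and a single liraglutide tumor, tumor 4, was above it. The means were 1457 ± 230.2 and 1099 ± 96.5 CPM (SD, n = 5 each), with a log2 fold change of -0.41 (SE 0.12).

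With edgeR's quasi-likelihood test and Benjamini-Hochberg adjustment over all genes, 0 of the 17464 genes, and so none of the 10, had an adjusted p under 0.05 (0% called), and the smallest adjusted p was 0.482. At an unadjusted p under 0.05 there were 1675 genes, and 8 of the 10 glycolytic genes were among the lower ones, where the share over all genes was 5.62%. DESeq2, run as an alternative, called 102 genes, with Pgk1 as the 1 glycolytic gene among them (of all genes 0.429% were called lower and 0.155% higher). These shares are over all 17464 genes, but DESeq2 gave no adjusted p to many genes at low levels. Such genes could not be called, so the shares are lower than among the genes that could be. Since this contrast chose the genes, these counts describe them and support nothing further.

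Groups that did not overlap were found for 1 of the 10 genes, Pgk1, against 0.888% of all tested genes in the lower direction and 0.607% in the higher. At least 4 of the 5 liraglutide tumors were below all vehicle tumors for Aldoa, Pgk1 and Ldha, 3 of 10, against 4.09% of all genes. The first count depended on single tumors. Without vehicle tumor 4 it was 4, and without vehicle tumor 1, liraglutide tumor 1 or liraglutide tumor 4 it was 2. All 10 fold changes were below 0 with any of the tumors left out.

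The 10 genes together took 0.617% to 0.861% of the counts of a vehicle tumor (median 0.798%) and 0.457% to 0.656% of the counts of a liraglutide tumor (median 0.599%). Vehicle tumor 4 was the low vehicle tumor, within the liraglutide range. For each tumor, the deviation of a gene is its log2 CPM minus the mean over the 10 tumors. The median deviation over the 10 genes was 0.28, 0.35, 0.47, -0.15 and 0.17 in vehicle tumors 1 to 5. In liraglutide tumors 1 to 5 it was 0.05, -0.12, -0.43, -0.17 and -0.56. In vehicle tumor 3 all 10 genes were above their mean and in liraglutide tumor 5 none was, so the groups overlapped in the middle while their extremes lay on opposite sides.

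**Figure D2:**
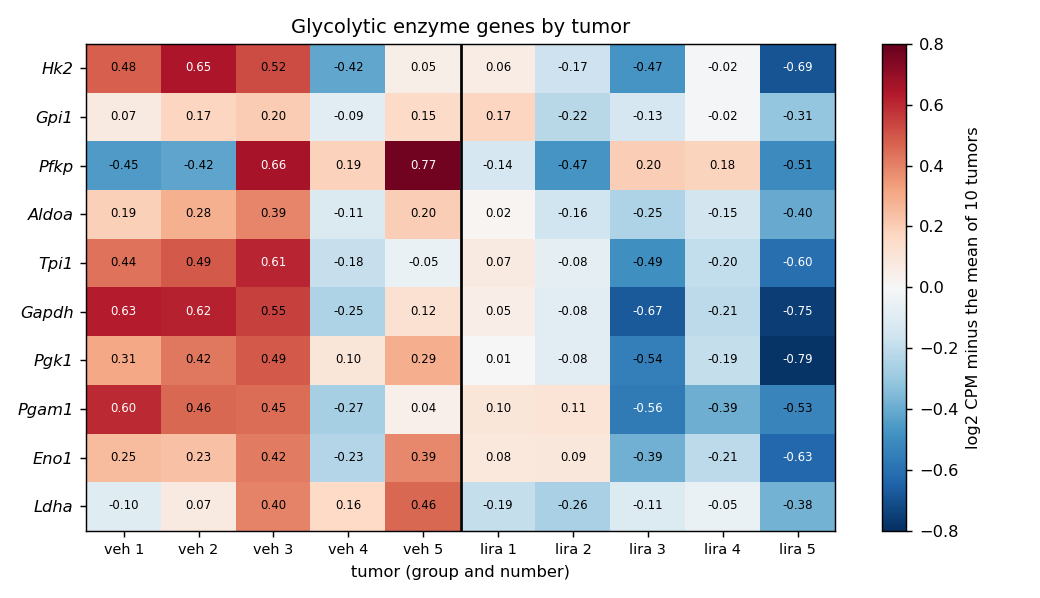
Rows are the 10 genes in pathway order and columns the tumors, with color and number giving the log2 CPM minus the mean of the 10 tumors. Vehicle tumor 4 has 3 genes above the mean and liraglutide tumor 1 has 8, and the row of Pfkp is -0.45 and -0.42 in vehicle tumors 1 and 2, where most other rows are above 0.

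Levels can be compared between genes when divided by transcript length. As CPM per kilobase of the canonical transcript in vehicle tumors (mean ± SD, n = 5), Gapdh was at 1597 ± 387 and Ldha at 917 ± 145. Then came Aldoa at 525 ± 65.0, Tpi1 at 473 ± 110.1, Pgk1 at 378 ± 38.1 and Eno1 at 325 ± 53.4. Gpi1 was at 168 ± 13.1, Pgam1 at 99.1 ± 22.8, Hk2 at 40.6 ± 11.05 and Pfkp at 34.7 ± 13.4. The genes of the lower part of the pathway and of aldolase thus stood above those of the entry enzymes Hk2 and Pfkp. Each gene was above the next of this order in all 5 vehicle tumors, except Aldoa over Tpi1, which held in 4 of 5, and Hk2 over Pfkp, which held in 3 of 5, and these pairs did not differ beyond their spread.

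Several steps have more than one enzyme gene, and shares were computed within each family from counts per kilobase of the canonical transcript. Ldha held 99.9% or more of the length-scaled lactate dehydrogenase counts in every tumor, and Ldhb, the heart-type subunit, had 2 to 12 counts per tumor. Pgk2, the testis form of phosphoglycerate kinase, had 0 counts in every tumor, so Pgk1 held all of that family's counts. A count of 0 allows up to 0.207 to 0.315 CPM at these depths, for counting error alone. By length-scaled counts, Aldoa held 97.5% to 99.0% of aldolase, Pgam1 92.6% to 98.6% of mutase and Eno1 82.7% to 91.2% of enolase. Most of the remainder of the last pair was the muscle forms Pgam2 and Eno3.

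The entry steps were shared among isozymes. Hk1 took 55.5% to 70.0% of length-scaled hexokinase counts and Hk2 25.5% to 43.6%. Before scaling by length, Hk2 had the higher vehicle mean (316 CPM, Hk1 277 CPM) and Hk1 the higher liraglutide mean (247 CPM, Hk2 218 CPM). Among the phosphofructokinases, Pfkl took 36.5% to 56.2%, Pfkp 29.9% to 53.9% and Pfkm, the muscle form, 8.08% to 18.1%. The Pfkm share ranged from 8.08% to 14.9% in vehicle tumors and from 14.6% to 18.1% in liraglutide tumors. Markers of skeletal muscle ran higher in the same direction, with 9 of 9 tested genes at a log2 fold change above 0, none at an adjusted p under 0.05 and 1 of 10 listed markers, Tnnc2, at 0 in some tumors. Their summed level was 51.2 to 327 CPM in vehicle and 112 to 433 CPM in liraglutide tumors, and its part in the isozyme shares was not tested.

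The 10 genes did not all vary together from tumor to tumor. To keep the treatment out of the comparison, group means were subtracted from log2 CPM before genes were correlated over the 10 tumors. Over the 45 pairs of genes Pearson's r ranged from -0.41 to 0.96, with a median of 0.77. These pairs share their libraries and scaling and are given as a description. Gapdh and Tpi1 had r = 0.96 (Spearman's rho 0.83, r = 0.93 without the 2 tumors farthest from the median of the first gene), and Pgk1 and Eno1 had r = 0.90.

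Seen in these values, 8 of the genes varied together, and Pfkp and Ldha varied with each other and less closely with the 8. Among the 28 pairs of the 8 genes the lowest r was 0.51 and the median 0.85. Pfkp and Ldha had r = 0.95 (rho 0.96, r = 0.93 without 2 tumors), and the 16 pairs that join either of them to the 8 had r from -0.41 to 0.42. This division was drawn after the values were seen and was not tested. In the per tumor values it shows as high Pfkp and Ldha in vehicle tumors 3 and 5 and high Hk2, Tpi1, Gapdh and Pgam1 in vehicle tumors 1 to 3. The Pfkp and Ldha pair kept r between 0.94 and 0.98 with any tumor left out, while Ldha and Gapdh ranged from -0.34 to 0.12. With the tumor number as a block, however, Ldha and Gapdh had r = 0.58, so the separation of Ldha from Gapdh was not kept under that alternative.

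**Figure D3:**
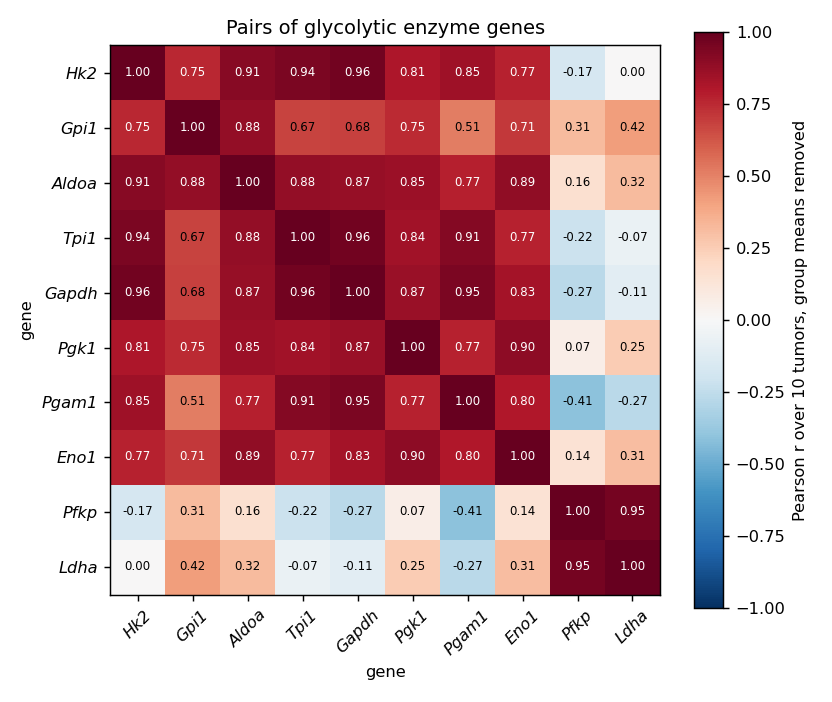
Each cell gives Pearson's r between 2 genes over 10 tumors, computed on log2 CPM with group means removed, with Pfkp and Ldha placed last. The 28 pairs among the first 8 genes are 0.51 or higher, the pair of Pfkp and Ldha is 0.95, and the remaining cells lie between -0.41 and 0.42.

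The genes most like Pgk1 over the 10 tumors were Pmm1 (r = 0.95), Nalcn (r = 0.95), Fer (r = 0.94), Trdv4 (r = 0.94) and Fndc10 (r = 0.94), on the same centred scale. They are the highest of the correlations with all tested genes and are listed for their likeness alone. Trdv4 (means 3.13 CPM in vehicle and 1.42 CPM in liraglutide tumors) and Fndc10 (1.19 and 1.42 CPM) were at low levels. Fndc10 had a log2 fold change of 0.25 (SE 0.32), while Pmm1, Nalcn, Fer and Trdv4 were below 0. Of all tested genes 1.43% had an r to Pgk1 above 0.8. Eno1 was at rank 25 in this order, Gapdh at 56, Aldoa at 81, Tpi1 at 107, Hk2 at 209, Pgam1 at 388 and Gpi1 at 494. Ldha was at rank 6078 and Pfkp at 8083.

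Around the pathway, 11 lists of related genes were read in the same edgeR test. Of 144 listed genes 133 were tested, and 100 of these (75.2%) had a log2 fold change below 0, against 52.6% of all genes. This pooled share leans on the hypoxia (19 of 21), proliferation (16 of 16) and integrated stress response (12 of 13) lists. It does not describe the metabolic lists alone, which are given list by list below. None had an adjusted p under 0.05. At an unadjusted p under 0.05, 14 (10.5%) were lower, 7 of them in the hypoxia list, and 1 (0.752%) was higher. The shares over all genes were 5.62% and 3.97%, and DESeq2 called 4 at an adjusted p under 0.05. Any named gene below therefore failed the edgeR correction, and its values are given as measured.

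Among the other isozymes and lower steps of glycolysis, 6 of 14 tested genes were below 0, with a median log2 fold change of 0.06. The most abundant of them, Pkm, Hk1, Pfkl and Eno3, were all below 0 (Hk1 -0.16, SE 0.14; Pfkl -0.24, SE 0.18; Eno3 -0.30, SE 0.19), and most of those above 0 were at low levels. The difference between this list and the 10 genes was not tested. Pkm, the pyruvate kinase of most tumors, had the smallest p in the lower direction, at 2017 ± 422 CPM in vehicle and 1612 ± 270.3 CPM in liraglutide tumors (SD, n = 5 each), with a log2 fold change of -0.32 (SE 0.16). Hk3, a hexokinase of myeloid cells, had the smallest p in the higher direction (log2 fold change 0.73, SE 0.42). Hk3 ran from 1.52 to 7.98 CPM in vehicle and from 3.43 to 7.27 CPM in liraglutide tumors, so its groups overlapped.

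Among transporters and regulators 8 of 13 tested genes were below 0 (median -0.08). Slc2a1, the glucose transporter GLUT1, was at 110 to 348 CPM in vehicle and 99.1 to 194 CPM in liraglutide tumors, with a log2 fold change of -0.75 (SE 0.29). Slc16a3, the lactate exporter MCT4, had -0.28 (SE 0.33), and without vehicle tumor 3 it was 0.02. Pfkfb4, which sets the level of the phosphofructokinase activator fructose 2,6-bisphosphate, had 0.41 (SE 0.24).

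The lists of pyruvate entry, the citric acid cycle, the pentose phosphate pathway and gluconeogenesis had medians between -0.07 and 0.10. In the entry of pyruvate to mitochondria 9 of 13 genes were below 0 (median -0.04), with Pdk1, an inhibitor kinase of pyruvate dehydrogenase, at -0.40 (SE 0.24), Dld at -0.41 (SE 0.21) and Pdk4 at 0.67 (SE 0.36). The citric acid cycle had 10 of 16 below 0 (median -0.07), with the succinate dehydrogenase subunits Sdhb at -0.24 (SE 0.11) and Sdha at 0.20 (SE 0.10). The pentose phosphate pathway had 7 of 8 below 0 (median -0.07), with Pgls at -0.18 (SE 0.11) and H6pd at 0.30 (SE 0.27). Gluconeogenesis had 1 of 4 below 0 (median 0.10), which was Pck2 at -0.13 (SE 0.35), and Pcx was at 0.68 (SE 0.37).

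Phgdh, which diverts 3-phosphoglycerate to serine, was at 112 ± 25.0 CPM in vehicle and 63.8 ± 19.96 CPM in liraglutide tumors (SD, n = 5 each), a log2 fold change of -0.81 (SE 0.22, edgeR adjusted p = 0.482, DESeq2 adjusted p = 0.0474). In its list 4 of 5 genes were below 0 (median -0.42), but the median was -0.01 without vehicle tumor 5. The exception was Shmt1 at 0.18 (SE 0.13).

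Of the glycogen genes 8 of 10 were below 0 (median -0.12). Gbe1, the branching enzyme, was at 46.7 ± 10.2 CPM in vehicle and 29.8 ± 4.36 CPM in liraglutide tumors, a log2 fold change of -0.65 (SE 0.17, edgeR adjusted p = 0.482). DESeq2 gave Gbe1 no adjusted p. Pygb, the brain form of glycogen phosphorylase, went the other way, from 83.1 ± 19.9 to 157 ± 56.0 CPM, with 0.92 (SE 0.25, edgeR adjusted p = 0.482, DESeq2 adjusted p = 0.0461). It was the 1 gene of the 11 lists higher at an unadjusted p under 0.05.

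**Figure D4:**
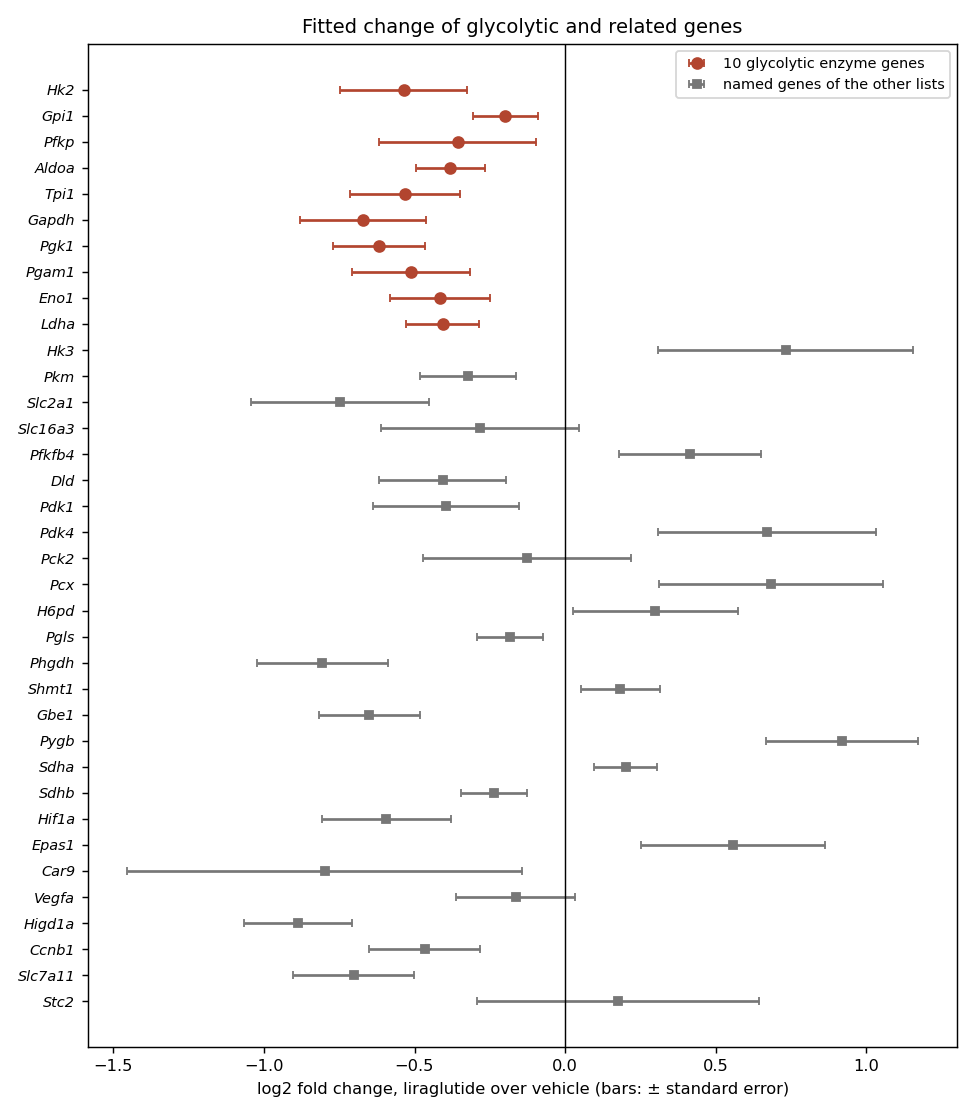
Points are fitted log2 fold changes of liraglutide over vehicle tumors (horizontal axis) with bars of ± 1 standard error, for the 10 glycolytic genes (circles) and the named genes of the other lists that were tested (squares). All 10 circles lie between -0.67 and -0.20, while the squares lie on both sides of 0.

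The list of hypoxia factors and responsive genes, which holds no glycolytic gene, had 19 of 21 genes below 0, with a median of -0.41. Higd1a, a mitochondrial protein induced in hypoxia, had the smallest p, at 59.8 to 121 CPM in vehicle and 38.7 to 53.9 CPM in liraglutide tumors with no overlap (log2 fold change -0.89, SE 0.18, edgeR adjusted p = 0.482, DESeq2 adjusted p = 0.00761). Hif1a, the oxygen-regulated factor itself, had -0.59 (SE 0.21) and Vegfa, its angiogenic target, -0.16 (SE 0.20). Car9, a hypoxia-induced carbonic anhydrase, had -0.80 (SE 0.65), and without vehicle tumor 5, which held 155 CPM, it was 0.21. Epas1, which encodes HIF-2α, was at 0.56 (SE 0.31).

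Proliferation genes were below 0 in 16 of 16 cases (median -0.37), with Ccnb1 at -0.47 (SE 0.18). Genes of the integrated stress response were below 0 in 12 of 13 (median -0.41), with Slc7a11, the cystine transporter, at -0.70 (SE 0.20) and Stc2 at 0.17 (SE 0.47). Without vehicle tumor 5 the median of the stress list was 0.07. Neither list had a gene past the adjusted threshold.

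Markers of other cell types were read in the same fit, and none of them passed at an adjusted p under 0.05. Of the leukocyte markers 11 of 12 tested had a fold change above 0 (median 0.24, summed level 231 to 414 CPM in vehicle and 259 to 475 CPM in liraglutide tumors). All 5 of 5 erythroid markers were below 0 (median -2.02, 26.9 to 74.1 CPM and 15.6 to 33.5 CPM). Fibroblast markers were below 0 in 4 of 8 (median 0.06) and endothelial markers in 2 of 5 (median 0.01). Keratinocyte markers were above 0 in 5 of 5 found (median 2.36), with sums of 8.43 to 19.2 CPM in vehicle and 6.82 to 206 CPM in liraglutide tumors. Krt5 and Krt1 were at 0 in some tumors. The 3 tested adipocyte markers were below 0 (median -0.71), with sums of 15.3 to 83.2 CPM in vehicle and 18.4 to 47.7 CPM in liraglutide tumors and Lep and Retn at 0 in some tumors. Of 8 tested tumor epithelial markers 5 were above 0 (sums 4625 to 9717 CPM and 4730.3 to 7034 CPM), with Nkx2-1 at 0.99 (SE 0.45). The abundant markers of this list differed in direction. The keratins Krt8, Krt18 and Krt19 had -0.26 (SE 0.19), -0.23 (SE 0.16) and -0.33 (SE 0.27). Cdh1, with means of 1129 CPM in vehicle and 1559 CPM in liraglutide tumors, had 0.47 (SE 0.36). The summed levels of all these lists overlapped between the groups. Their part in the lower levels of the glycolytic genes was not tested.

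To ask which other programs the glycolytic genes varied with inside the groups, each was related to 6 list scores, the mean of standardized log2 CPM over a list, with group means removed from both. That gave 60 relations, each with a two-sided exact permutation test within groups over all arrangements of the tumors. The scores come from the same tumors, and how far they varied with each other was not tested. The relation of Hk2 to the hypoxia score was the 1 that passed at an adjusted p under 0.05 (r = 0.89, permutation p = 0.000625, adjusted p = 0.0375; rho 0.96, adjusted p = 0.0125), and r was 0.90 without the 2 tumors farthest from the score's median. By rho, 7 of the 60 passed, and at an unadjusted p of r under 0.05 there were 18. The 7 were Hk2 and Aldoa with hypoxia, Tpi1, Pgk1 and Pgam1 with proliferation, and Gapdh and Pgam1 with the leukocyte score.

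The call for Hk2 depended on single tumors, while r itself stayed between 0.87 and 0.91 with any tumor left out. Without vehicle tumor 1, 2, 3 or 4 or without liraglutide tumor 4 none of the 60 passed. Without vehicle tumor 5 there were 3, without liraglutide tumor 1 there were 6, and without liraglutide tumor 2 there were 13. With the tumor number as a block r was 0.88 and none passed. That setting permutes 5 differences between same-numbered tumors. These have too few arrangements for a single relation to pass the adjustment, so it cannot decide the call.

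The other genes of the 8 had r to the hypoxia score of 0.87 for Gapdh, 0.85 for Tpi1, 0.83 for Gpi1, 0.82 for Aldoa, 0.78 for Pgk1, 0.72 for Pgam1 and 0.63 for Eno1. For Gapdh, Tpi1 and Aldoa the adjusted p was 0.0567 (exact permutation, n = 10 tumors), and for Pgk1 it was 0.0862. Ldha, whose upstream window held the most ACGTG letters among the printed genes, had r = -0.01, and Pfkp had -0.17. With tumor number as a blocking factor, r of Ldha to this score was 0.53. Gpi1, with neither core in its window, was related to the score about as closely as Aldoa. Whether any of these correlations differ from each other, or go with the letters upstream, was not tested.

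Against the leukocyte score the 8 genes ran opposite, with r = -0.87 for Pgam1 (adjusted p = 0.0567, exact permutation), -0.82 for Gapdh (adjusted p = 0.0621, exact permutation) and -0.74 for Pgk1 (adjusted p = 0.161, exact permutation). Pfkp had 0.54 and Ldha 0.40. With tumor number as a blocking factor, r of Ldha to the leukocyte score was -0.91, the opposite sign. With the integrated stress response the largest r belonged to Ldha, at 0.72 (adjusted p = 0.181, exact permutation), followed by Pfkp at 0.68. For Ldha that value fell to 0.26 without vehicle tumors 1 and 5, the tumors farthest from the median of the score, so it rested on them. With the proliferation score r was 0.83 for Pgam1, 0.79 for Gapdh and Tpi1, 0.78 for Hk2 and 0.73 for Eno1 and Aldoa. Pgk1 had 0.59 (rho 0.76), Gpi1 0.33, Ldha -0.06 and Pfkp -0.22.

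**Figure D5:**
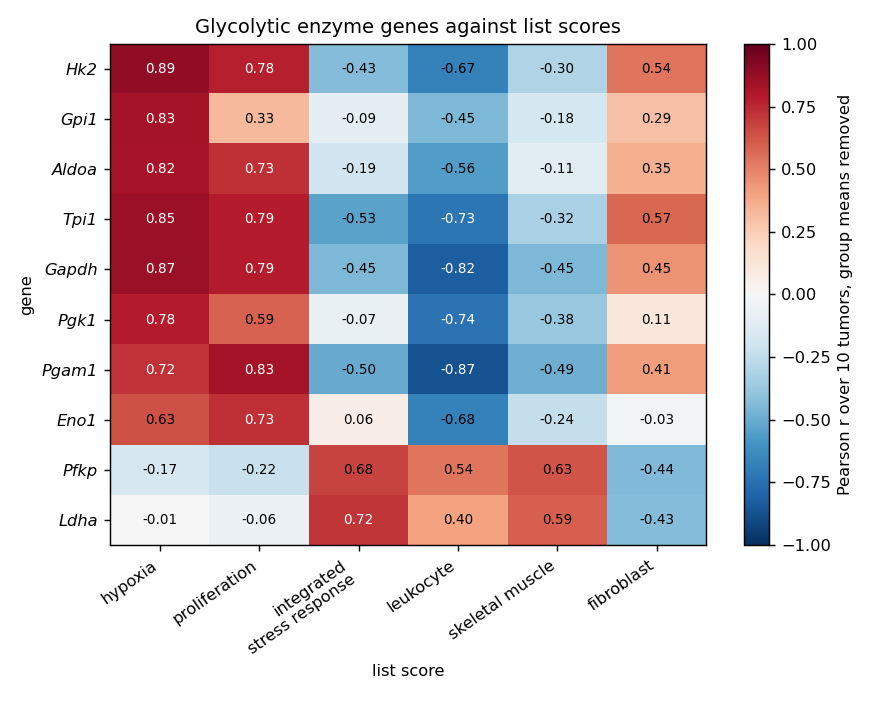
Each cell gives Pearson's r over 10 tumors, with group means removed, between a glycolytic gene (rows) and a list score (columns). The first 8 rows are between 0.63 and 0.89 in the hypoxia column, where Pfkp and Ldha are at -0.17 and -0.01, and the signs of these 2 rows are opposite to most other rows in the leukocyte and skeletal muscle columns.

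Some limits apply to single genes. Named pseudogene copies in the table held at most 0.385% of the counts of a glycolytic gene, which was Pgam1 with 69 such counts. Reads of near-identical copies may still be split by the counting. On the opposite strand Pfkp overlaps Pitrm1, Aldoa overlaps Tlcd3b, Tpi1 overlaps Spsb2 and Gapdh overlaps Iffo1, and Aldoa also overlaps Gm57854 on its own strand. The library kit marks strand, but the sources used here do not state whether the counting used it, so reads in these overlaps cannot be told apart.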

How the data were processed

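Raw counts per gene of 10 tumors were deposited. The authors mapped read pairs to GRCm39 with Bowtie and TopHat, counted them with featureCounts and removed samples at quality assessment. The labels' processing notes name mm10 and GRCh38, so the build stays uncertain, and neither the annotation release nor the strand setting is given in the sources used here. Versioned Ensembl identifiers of 51731 of 55401 genes were matched without version to GENCODE M39 (GRCm39), which gave symbols, positions and starts. Groups and tumor numbers came from the titles, and spread between tumors was at least 9.21 times counting error (chi-square per degree of freedom). A floor of 3 counts was 0.207 to 0.315 CPM per tumor.

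Counts were filtered (filterByExpr), TMM-scaled and fitted with treatment as the single factor by edgeR 4.0.16 in R 4.3.3. DESeq2 1.42.0, limma 3.58.1 (voom), other scalings, no filter, removal of mitochondrially encoded genes, the tumor number as a block and leaving out each tumor were alternatives. Log2 CPM used a prior count of 2. The fits and the within-group permutation were tested on simulated data. Named genes were the 10 glycolytic genes, in each list the gene with the smallest p in either direction, 9 genes of general interest (Pkm, Slc2a1, Slc16a3, Ldhb, Pdk1, Hif1a, Vegfa, Car9 and Pgk2) and the 5 genes most like Pgk1. The genes and lists were chosen with earlier results of these data known. The keratinocyte marker Lor was not matched by symbol.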

Additional observations from a re-analysis of the deposited data

Results flagged for a closer look

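Of 86 sets of 5 tumors (a gene or score in a treatment group), 4 held a tumor far from the others by Dixon's criterion (gap over range above 0.71). For independent, normally distributed values chance would flag about 1 in 20 such sets, a rate close to the one seen here. These sets share tumors, and the genes were read as CPM without a log, so that rate is a rough guide. Hk3 was at 7.98 CPM in vehicle tumor 5, with the next vehicle tumor at 3.04 CPM. Car9 was at 155 CPM in vehicle tumor 5, with the next at 36.7 CPM. Among liraglutide tumors Car9 was at 72.3 CPM in tumor 4, with the next at 23.7 CPM. The proliferation score of liraglutide tumor 2 was 0.780 and that of the nearest liraglutide tumor -0.544. None of the 10 glycolytic genes held such a tumor in either group.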

How the results depend on the processing

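The median log2 fold change of the 10 glycolytic genes was between -0.47 and -0.41 under the scalings, filters and other fits and between -0.56 and -0.40 with each tumor left out, and all 10 stayed below 0 in each of them. The count of called genes was 0 with edgeR under every such setting and 0 with limma-voom, but 102 with DESeq2, including 4 of the listed pathway genes (Phgdh, Pygb, Higd1a and Bnip3). The cause was not tested. Leaving out each tumor gave 1 to 4 glycolytic genes without overlap, and 0 to 13 of the 60 relations passing, against 1 with all tumors. Without removing group means 12 passed. Signs turned for Pck2 under limma-voom (0.032) and without vehicle tumor 5 (-0.32 to 0.23 with each tumor left out), for Stc2 without vehicle tumor 1 (-0.067) or liraglutide tumor 3 (-0.067 to 0.52), for Slc16a3 without vehicle tumor 3 (-0.47 to 0.021) and for Car9 without vehicle tumor 5 (-1.42 to 0.21), none of which had passed the test.

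Vehicle and liraglutide tumors share the numbers 1 to 5 but come from different mice. Of the 5 same-numbered pairs 3 had deviations correlated above 0.1. The mean r was 0.26 for same-numbered tumors and -0.07 for tumors with other numbers. Most tumors matched another number best, so the numbers were not taken as a pairing, and the block is given as an alternative. With the number as a block, 0 genes passed, all 10 glycolytic genes stayed below 0, and Pck2 was at 0.024. Of the 60 relations 0 passed, but permuting 5 differences gives too few arrangements for a single relation to pass the adjustment. Signs of r turned for Gapdh (-0.45 to 0.81) and Pgk1 (-0.38 to 0.52) with the skeletal muscle score, for Ldha with the leukocyte score (0.40 to -0.91), with the hypoxia score (-0.01 to 0.53) and with Gapdh (-0.11 to 0.58), and for Pgk1 with the integrated stress response score (-0.07 to 0.52). Signs also turned for Gapdh with the stress score, Ldha with proliferation and Pgk1 with the fibroblast score. With 5 tumors per group, the spread between tumors and not the depth limits these values.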

Other observations

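Pgk1 and Ldha were also set against each of the 21 genes of the hypoxia list (42 relations, group means removed, two-sided exact permutation within groups), a comparison added after the scores were seen. Pgk1 varied with Egln1, the oxygen sensor that marks HIF for decay (r = 0.83, rho 0.78, adjusted p = 0.00583, exact permutation, r = 0.77 without 2 tumors), with Higd1a (r = 0.71, rho 0.81, adjusted p = 0.0131, exact permutation, r = 0.90 without 2 tumors), with the mitophagy receptor Bnip3 (r = 0.87, rho 0.90, adjusted p = 0.0467, exact permutation, r = 0.79 without 2 tumors) and with the collagen prolyl hydroxylase P4ha1 (r = 0.78, rho 0.71, adjusted p = 0.0467, exact permutation, r = 0.68 without 2 tumors). These were the 4 relations that passed, and the share of all tested genes that would pass was not computed. Pgk1 against the hypoxia score as a whole had not passed (adjusted p = 0.0862, exact permutation). The 42 relations were not rerun leaving out each tumor in turn or blocking by tumor number. Whether the 4 calls depend on single tumors was therefore not tested. Ranked by r with Pgk1 among the tested genes, Bnip3 was at 57 and Higd1a at 753. Below 0 were Epas1 (r = -0.71, rho -0.76, adjusted p = 0.122, exact permutation), Car9 (r = -0.09) and Arnt (r = -0.02).

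None of the 21 relations of Ldha passed by Pearson's r. Its highest values were with Ero1a, an oxidase of the endoplasmic reticulum (r = 0.72, rho 0.70, adjusted p = 0.105, exact permutation, r = 0.80 without 2 tumors), and with Ndrg1 (r = 0.72, rho 0.70, adjusted p = 0.122, exact permutation, r = 0.77 without 2 tumors). With Egln1, Higd1a, Bnip3 and P4ha1 the r of Ldha was between -0.24 and -0.02. The difference between Pgk1 and Ldha was not tested.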
